A study of Homo sapiens with 6 samples.

Results

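Aminoacyl-tRNA synthetases, the enzymes that attach each amino acid to its tRNA, were followed in the melanoma cell line WM-266.4 with PIR knocked down. Of 35 genes listed by name, 19 encode cytosolic enzymes and 16, whose symbols end in the digit 2, mitochondrial ones. Each gene was taken at the brightest probe set that the platform annotation gives to that gene alone, and no value of the comparisons entered that choice. By this rule 32 genes had a probe set, 17 cytosolic and 15 mitochondrial, and all 32 passed the filter on low signal that 13053 of 19775 genes passed. MARS1, QARS1 and TARS2 had no probe set annotated with them alone and were not analysed here.

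All cells went through transfection with Oligofectamine and were collected 72 h later. For siPIR, 200 pmol of a mix of 4 siRNA duplexes was aimed at PIR, which encodes the iron-binding nuclear protein pirin, for siCTR the same amount of 4 non-targeting duplexes was used, and NO cells had only the reagent. RNA from 3 extractions was mixed for each group and hybridised to 2 Affymetrix HG-U133 Plus 2 arrays, so that each group is 1 RNA pool and its 2 arrays show technical error only. No test of the conditions was made on single pools, and precision is bounded by having 2 arrays. Differences below are between pools in the mean over arrays of log2(signal + 5.4), followed where given by their range over the 4 pairs of arrays.

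The cytosolic enzymes charge tRNAs for the ribosomes of the cytosol, and the mitochondrial ones, also encoded in the nucleus, serve the translation of the few proteins made from mitochondrial DNA. The enzymes fall into classes I and II by the fold of the catalytic domain, and a group of cytosolic enzymes is held together with scaffold proteins in the multisynthetase complex. Cytosolic synthetase genes are known targets of ATF4, the transcription factor of the amino acid and integrated stress response, which binds with C/EBP proteins at a composite DNA element.

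The letters of that element were searched in the promoters, which does not depend on the array values. Promoter windows from RefSeq (GRCh38.p14), each with 250 bases before and 50 after an annotated transcription start, were given for 30 of the 35 genes. The letters TGATGNAA, searched on both strands, were present in 7 of 16 cytosolic genes (43.8%) and in 1 of 14 mitochondrial genes (7.14%), against 4.46% of 27305 genes with a window and 2.83% of 10575 measured genes with one. The 30 bases around each match are printed 5′ to 3′ along the gene, with the match in capitals, to show how alike the sites are. A match of letters is not evidence that a factor binds there.
AARS1 (chr16:70289675-70289704, minus strand): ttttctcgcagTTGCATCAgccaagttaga
GARS1 (chr7:30594834-30594863, plus strand): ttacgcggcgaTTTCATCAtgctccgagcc
IARS1 (chr9:92293692-92293721, minus strand): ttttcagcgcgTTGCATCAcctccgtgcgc
MARS1 (chr12:57488053-57488082, plus strand): gccggttccggTTGCATCAgcgagggattc
CARS1 (chr11:3057407-3057436, minus strand): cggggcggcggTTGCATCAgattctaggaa
TARS1 (chr5:33440956-33440985, plus strand): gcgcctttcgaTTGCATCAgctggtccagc
NARS1 (chr18:57621804-57621833, minus strand): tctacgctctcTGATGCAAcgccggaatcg
YARS2 (chr12:32756076-32756105, minus strand): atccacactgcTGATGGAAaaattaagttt

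In 6 of the 8 windows the match was TGATGCAA or its reverse complement TTGCATCA, and GARS1 and YARS2 had other letters at the free position. Positions counted from the annotated start, with negative numbers before it, ran from -187 in AARS1 to 15 in NARS1 among the cytosolic genes. YARS2, the mitochondrial enzyme for tyrosine, had its match at -197. None of the windows of WARS1, SARS1, HARS1, KARS1 or FARSB held these letters. The E-box letters CACGTG were present in 1 of 16 cytosolic and 3 of 14 mitochondrial genes (8.77% of all genes with a window, 12.7% of measured ones). The NRF1 site, searched as GCGC, any base, T and GCGC in a row, was present in 3 of 16 and 3 of 14 (6.98% and 13.0%).

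**Figure D1:**
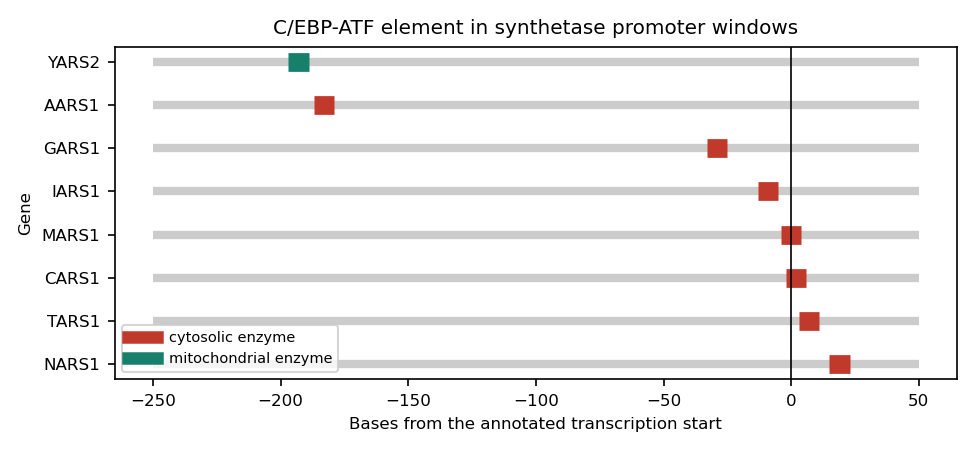
Position of the C/EBP-ATF letters in synthetase promoter windows, in bases from the annotated transcription start (black line); grey bars are the windows and coloured blocks the matches. For 6 cytosolic genes the match lies within 40 bases of the start, in AARS1 and YARS2 more than 180 bases before it.

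The arrays were alike in scale, with median signals from 64.2 to 74.8. PIR itself read 392.3 and 381.5 in siPIR cells, 13544 and 13180 in siCTR cells, and 13990 and 14153 in NO cells, which is 34.1-fold lower than siCTR and 35.9-fold lower than NO. The melanocyte lineage was plain: 7 of 8 markers were measured, whose pool means over the list added up to 102304 (siPIR), 98092 (siCTR) and 100360 (NO). Of 20 fibroblast, keratinocyte, leukocyte and endothelial markers 6 were measured. The keratinocyte list, of which only KRT10 was measured, summed to 2707 (siPIR), 3510 (siCTR) and 3334 (NO), the other 3 lists to between 181 and 639 in any pool. CD14, the only measured leukocyte marker, had pool means of 282 (siPIR), 150 (siCTR) and 92.2 (NO), with PTPRC, CD3E and LYZ below the filter. For ACTB the ratio of 3' to 5' signal, which rises as RNA degrades, stood at 1.13 for both siPIR arrays and between 1.23 and 1.27 for the 4 control arrays. The part of RNA quality and of other cell types in the values below was not tested.

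As a family the synthetases differed little between the pools. Calls required a log2 difference of a set size together with no overlap between the arrays of the pools compared. At a size of 1 (2-fold), 0 of 32 members were called higher and 0 lower in siPIR against both controls, where 1.47% of all measured genes were higher and 3.2% lower. At a size of 0.5 (1.41-fold) the members again gave 0 and 0, where 8.66% of all measured genes were higher and 9.4% lower. Against siCTR alone the members gave 0 higher and 0 lower at 0.5 (13.8% and 12.2% of measured genes). Against NO alone they gave 3 higher, GARS1, WARS1 and CARS1, and 0 lower (15.1% and 15.3%). At 2-fold each single comparison gave 0 and 0, where measured genes gave 3.66% and 4.21% against siCTR, 3.6% and 5.4% against NO, and 0.996% and 2.4% for siCTR against NO. In bulk RNA of this kind, fewer cells of a type and less RNA per cell cannot be told apart.

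Without a size limit the arrays themselves can be counted. In 9 members (6 cytosolic and 3 mitochondrial) both siPIR arrays lay above all 4 control arrays, and in 6 (4 and 2) below them, where measured genes gave 28.4% and 23.1%. Against siCTR alone these counts were 13 and 9 (36.6% and 29.4%), against NO alone 15 and 8 (37.7% and 32.6%), and for siCTR against NO 13 and 3 (28.1% and 24.9%). No test of these counts against the background was made.

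The interquartile range of the 32 differences of siPIR from siCTR was 0.24 on the log2 scale, against 0.59 for all measured genes and 0.51 for the 8271 bright ones (highest pool mean above 458.4), and 30 of the 32 members are bright. Against NO it was 0.32, compared with 0.66 and 0.59. The median gap between the 2 arrays of a pool over the members was 0.08 in siPIR, 0.08 in siCTR and 0.07 in NO. Within 0.25 of no difference were 25 of 32 members against siCTR (78.1%, where all measured genes gave 43.5% and bright ones 49.3%). Against NO there were 20 of 32 (62.5%, where all gave 39.4% and bright ones 43.2%). The median over the members was 0.07 against siCTR and 0.06 against NO, and over all measured genes 0.05 and 0.03.

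**Figure D2:**
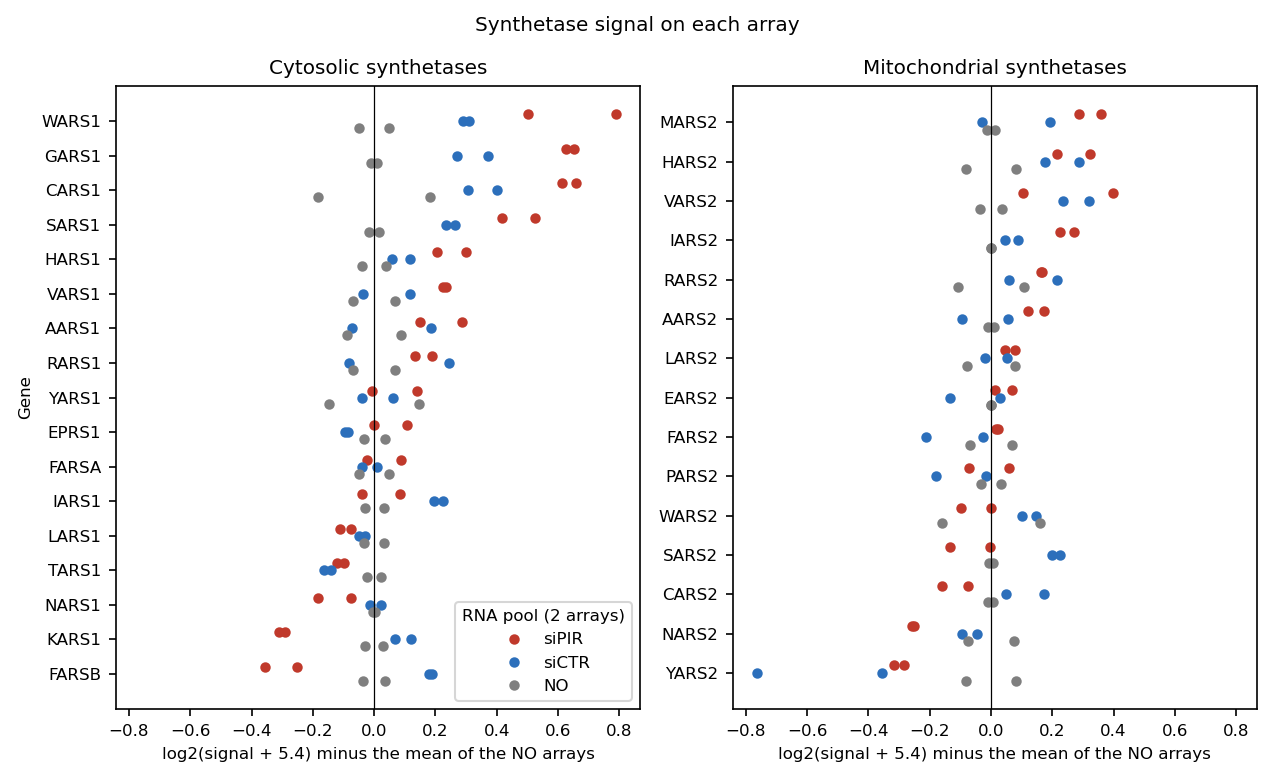
Signal of the 17 cytosolic and 15 mitochondrial synthetases on each array, as log2(signal + 5.4) minus the mean of the 2 NO arrays; each point is 1 array, coloured by RNA pool, and genes are ordered by siPIR minus NO. WARS1, GARS1, CARS1 and SARS1 have both siPIR arrays on the right and the siCTR arrays between siPIR and NO, while KARS1 and FARSB have both siPIR arrays on the left.

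At the upper end stood 4 cytosolic enzymes. GARS1, which charges glycine tRNA and supplies both the cytosol and mitochondria from 1 gene, had signals of 8658 and 8814 in siPIR, 6760 and 7253 in siCTR, and 5569 and 5640 in NO. No array of a pool overlapped those of another. Its difference was 0.32 from siCTR (0.26 to 0.38) and 0.64 from NO (0.62 to 0.66), a 1.56-fold higher level than in NO.

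WARS1, the cytosolic tryptophan enzyme, also known as an interferon-inducible gene, had 3570 and 4362 in siPIR, 3123 and 3080 in siCTR, and 2605 and 2437 in NO. The siPIR arrays were the highest and the least even. The difference was 0.35 from siCTR (0.19 to 0.50) and 0.65 from NO (0.45 to 0.84). CARS1, the cytosolic cysteine enzyme, had 3571 and 3686 in siPIR, 2887 and 3081 in siCTR, and 2651 and 2055 in NO, and again no pools overlapped. It differed by 0.28 from siCTR (0.21 to 0.35) and by 0.64 from NO (0.43 to 0.84), and the second was 0.45 without NO replicate 2, which ends the call.

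SARS1, the cytosolic serine enzyme, had 7800 and 7244 in siPIR, 6373 and 6503 in siCTR, and 5482 and 5360 in NO. It differed by 0.22 from siCTR (0.16 to 0.29) and 0.47 from NO (0.40 to 0.54), short of the smaller size for a call, which it reached at 0.52 without siPIR replicate 2. For these 4 genes the siCTR pool was itself above NO, by 0.32 for GARS1, 0.30 for WARS1, 0.35 for CARS1 and 0.25 for SARS1, so that the distance between the controls was about as large as that between siPIR and siCTR.

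At the lower end of the cytosolic class were KARS1 and FARSB. KARS1, the lysine enzyme, which like GARS1 serves both compartments, had 11473 and 11629 in siPIR, 14895 and 15436 in siCTR, and 13921 and 14516 in NO. The siPIR arrays lay below all 4 control arrays, with differences of -0.39 from siCTR (-0.43 to -0.36) and -0.30 from NO (-0.34 to -0.26). FARSB, the beta subunit of the phenylalanine enzyme, had 2359 and 2540 in siPIR, 3445 and 3427 in siCTR, and 2948 and 3101 in NO. It differed by -0.49 from siCTR (-0.55 to -0.43) and -0.30 from NO (-0.39 to -0.21), also without overlap. Without siPIR replicate 2 its difference from siCTR was -0.54, past the smaller size for a call.

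FARSA, the alpha subunit that forms the same enzyme with FARSB, differed less at its brightest probe set. Its signals were 1774 and 1644 in siPIR, 1625 and 1681 in siCTR, and 1613 and 1728 in NO, and all pools overlapped, with differences of 0.05 and 0.03. Its other measured probe set gave -0.37 and -0.46, on the side of FARSB. NARS1, for asparagine, had 8503 and 9163 in siPIR, 9579 and 9822 in siCTR, and 9682 and 9647 in NO, with differences of -0.14 and -0.13. LARS1, for leucine, had 3559 and 3643 in siPIR, 3709 and 3765 in siCTR, and 3928 and 3758 in NO, with differences of -0.05 and -0.09. In both the siPIR arrays lay below all control arrays, by little. The remaining 9 cytosolic genes, AARS1, EPRS1, HARS1, IARS1, RARS1, TARS1, VARS1, YARS1 and FARSA, lay between -0.19 (IARS1) and 0.19 (VARS1) against siCTR, and between -0.11 (TARS1) and 0.25 (HARS1) against NO.

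The promoters of the 3 genes called against NO and of KARS1 are given for the 250 bases before an annotated start (GRCh38.p14, 5′ to 3′ along the gene), with the letters of the motifs searched in capitals. GARS1 holds its match inside this stretch. In CARS1 the match begins 2 bases before the start and ends after it, and the stretches of WARS1 and KARS1 hold no match. GARS1, WARS1 and CARS1 each have a further annotated start whose window held none of the 3 motifs and is not printed.
GARS1 (chr7:30594628-30594877, plus strand): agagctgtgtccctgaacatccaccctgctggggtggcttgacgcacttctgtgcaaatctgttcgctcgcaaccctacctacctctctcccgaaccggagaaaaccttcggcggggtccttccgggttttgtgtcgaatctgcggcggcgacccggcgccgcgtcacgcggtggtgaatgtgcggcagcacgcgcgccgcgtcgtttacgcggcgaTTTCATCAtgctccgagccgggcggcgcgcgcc
WARS1 (chr14:100376328-100376577, minus strand): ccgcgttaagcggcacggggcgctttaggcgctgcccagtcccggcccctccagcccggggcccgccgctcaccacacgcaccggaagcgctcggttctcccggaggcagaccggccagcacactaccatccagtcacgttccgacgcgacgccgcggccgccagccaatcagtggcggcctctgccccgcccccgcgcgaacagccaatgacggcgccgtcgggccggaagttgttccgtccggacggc
CARS1 (chr11:3057424-3057673, minus strand): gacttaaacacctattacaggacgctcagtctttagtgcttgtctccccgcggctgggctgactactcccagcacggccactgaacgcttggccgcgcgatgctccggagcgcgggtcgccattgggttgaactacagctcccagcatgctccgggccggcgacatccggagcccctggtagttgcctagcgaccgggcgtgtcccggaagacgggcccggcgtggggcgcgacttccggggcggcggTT
KARS1 (chr16:75647666-75647915, minus strand): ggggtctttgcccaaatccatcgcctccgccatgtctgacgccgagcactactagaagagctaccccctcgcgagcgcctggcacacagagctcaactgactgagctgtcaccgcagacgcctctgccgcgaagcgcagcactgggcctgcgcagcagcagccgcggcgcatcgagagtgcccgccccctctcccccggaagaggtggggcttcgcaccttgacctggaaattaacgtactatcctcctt

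The median differences of siPIR from its controls were alike for genes with and without the C/EBP-ATF letters. Among 14 measured cytosolic genes with a window, the 6 with a match had a median difference of 0.10 from siCTR (-0.19 for IARS1 to 0.32 for GARS1) and 0.12 from NO. The 8 without a match had medians of 0.11 (-0.49 for FARSB to 0.35 for WARS1) and 0.11. Of the genes with a match, NARS1 was lower in siPIR and TARS1 differed by 0.04 and -0.11.

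Enzymes of the multisynthetase complex lay on both sides of 0. Of 7 listed, 5 were measured, and their medians were -0.05 against siCTR and 0.02 against NO, with 0 called. They ran from KARS1 at the low end to EPRS1, which joins the glutamate and proline activities in a single chain, at 0.14 against siCTR, and RARS1, for arginine, at 0.16 against NO. AIMP1, the only scaffold of the complex measured out of 3 listed, had 2971 and 2989 in siPIR, 3441 and 3746 in siCTR, and 3686 and 3626 in NO. It was lower in siPIR than on every control array, with differences of -0.27 and -0.29, and was not called. The 7 measured class I enzymes of the cytosol had medians of 0.08 and 0.16, the 9 of class II 0.05 and 0.03, with 0 called against both controls in either class. Leaving out 1 array moved the class I median against siCTR over 0.004 to 0.243 (the highest without siCTR replicate 2) and the class II median against NO over -0.022 to 0.087. As means over probe sets, with those below the filter included, the class II medians were -0.14 and -0.13, so that the classes are not set in order by these values. EPRS1, which holds a domain of each class, was left out of both.

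Among the mitochondrial enzymes none was called in siPIR against either control at its brightest probe set, though a further probe set of CARS2 was, as given below. Their median difference was 0.05 from siCTR and 0.04 from NO, where the cytosolic enzymes had 0.08 and 0.07. These medians differ by less than the omission of 1 array moves them. They ran from -0.28 (SARS2) to 0.26 (YARS2) against siCTR and from -0.30 (YARS2) to 0.32 (MARS2) against NO. Their interquartile range was 0.25 against siCTR and 0.27 against NO, where that of the cytosolic enzymes was 0.24 and 0.35. Whether the classes differ beyond variation between separate cultures could not be tested with 1 pool a group, and members of a class are not replicates.

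MARS2, the mitochondrial methionine enzyme, had 463 and 440 in siPIR, 352 and 411 in siCTR, and 363 and 356 in NO. Its siPIR arrays were above all control arrays, by 0.24 (0.10 to 0.39) and 0.32 (0.27 to 0.37). IARS2, for isoleucine, had 10396 and 10718 in siPIR, 9171 and 9458 in siCTR, and 8888 and 8895 in NO, with differences of 0.18 (0.14 to 0.22) and 0.25 (0.22 to 0.27) and no overlap. Both genes lie clear of the controls, though by less than the size for a call. AARS2, for alanine, had 1124 and 1084 in siPIR, 933 and 1034 in siCTR, and 989 and 1002 in NO, higher than all control arrays by 0.17 and 0.15. LARS2, for leucine, had 1163 and 1138 in siPIR, 1141 and 1086 in siCTR, and 1162 and 1043 in NO, and overlapped with both controls at 0.05 and 0.06. Other measured probe sets of AARS2 and LARS2 gave different sizes. That of AARS2 overlapped with both controls at 0.01 and -0.15. That of LARS2 was higher without overlap, by 0.36 (0.20 to 0.52) and 0.45 (0.28 to 0.63).

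On the lower side, NARS2, for asparagine, had 1680 and 1686 in siPIR, 1945 and 1882 in siCTR, and 2116 and 1907 in NO. The siPIR arrays were the lowest, with differences of -0.18 (-0.21 to -0.16) and -0.25 (-0.33 to -0.18). CARS2, for cysteine, had 1487 and 1403 in siPIR, 1624 and 1767 in siCTR, and 1577 and 1559 in NO, with differences of -0.23 and -0.12 and no overlap. CARS2 is not settled, since its measured probe sets ran from -0.41 to 0.53 against siCTR. The one at 0.53 (0.46 to 0.60), with signals of 73.0 to 127.2, met the call at 0.5 as higher than siCTR. It gave -0.13 from NO. SARS2, for serine, had 414 and 377 in siPIR, 476 and 485 in siCTR, and 417 and 413 in NO, with differences of -0.28 and -0.07. WARS2, for tryptophan, had 764 and 817 in siPIR, 905 and 878 in siCTR, and 731 and 915 in NO, with differences of -0.17 and -0.05. Both had their siPIR arrays below the siCTR arrays and overlapping with the NO arrays. The remaining 7 mitochondrial genes, EARS2, FARS2, HARS2, PARS2, RARS2, VARS2 and YARS2, lay between -0.03 (VARS2) and 0.26 (YARS2) against siCTR at their brightest probe sets. The measured probe sets of EARS2 ran from -0.41 to 0.35 against siCTR. The one at -0.41 (-0.51 to -0.31) was also lower than NO, by -0.42 (-0.53 to -0.31). A further probe set of FARS2 gave -0.15 from siCTR (-0.25 to -0.05) and -0.09 from NO.

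YARS2, the mitochondrial tyrosine enzyme, was the only member called between the controls at its brightest probe set. It had 396 and 387 in siPIR, 376 and 282 in siCTR, and 456 and 511 in NO. The siCTR arrays were the lowest, with a difference of -0.56 from NO (-0.85 to -0.27). The siPIR pool lay between the controls, with differences of 0.26 from siCTR and -0.30 from NO. The call rests on siCTR replicate 2 and NO replicate 2, since the difference between the controls was -0.36 without siCTR replicate 2 and -0.48 without NO replicate 2. At this size 3.75% of measured genes were higher in siCTR than in NO and 6.5% lower, and of the members 0 were higher and 1 lower. Further measured probe sets also met this call. Those of EPRS1 (-0.52, -0.65 to -0.39) and CARS2 (-0.66, -0.76 to -0.56) were lower in siCTR, and that of RARS2 (0.57, 0.34 to 0.81) higher.

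Enzymes for the same amino acid were then set side by side. In 15 pairs of a cytosolic and a mitochondrial gene (EPRS1 and FARS2 stand in 2 pairs each), the cytosolic difference was the higher one in 9 pairs against siCTR and in 9 against NO, with median gaps of 0.05 and 0.01. In 7 pairs against each control the enzymes differed in sign. Cysteine, tryptophan and serine showed gaps of 0.5 or more against both controls. CARS1 stood above CARS2 by 0.51 in its difference from siCTR and by 0.75 in that from NO, WARS1 above WARS2 by 0.52 and 0.70, and SARS1 above SARS2 by 0.50 and 0.54. In all 3 pairs the cytosolic gene had a positive and the mitochondrial one a negative difference from each control. As means over all probe sets of a gene this no longer held for any of the 3, with SARS1 at -0.19 and -0.07, WARS2 at 0.03 and 0.43, and CARS2 at 0.04 against NO. These means take in probe sets below the filter. That of WARS2 had signals of 3.1 to 13.5 and differences of 0.24 and 1.04. The measured probe sets of WARS2 gave -0.17 and -0.05, and 0.01 and 0.29. Those of CARS2 ran from -0.41 to 0.53 against siCTR and from -0.13 to 0.28 against NO. In the reverse sense the gap between FARSB and FARS2 was -0.63 and -0.32, and that between IARS1 and IARS2 -0.37 and -0.23.

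**Figure D3:**
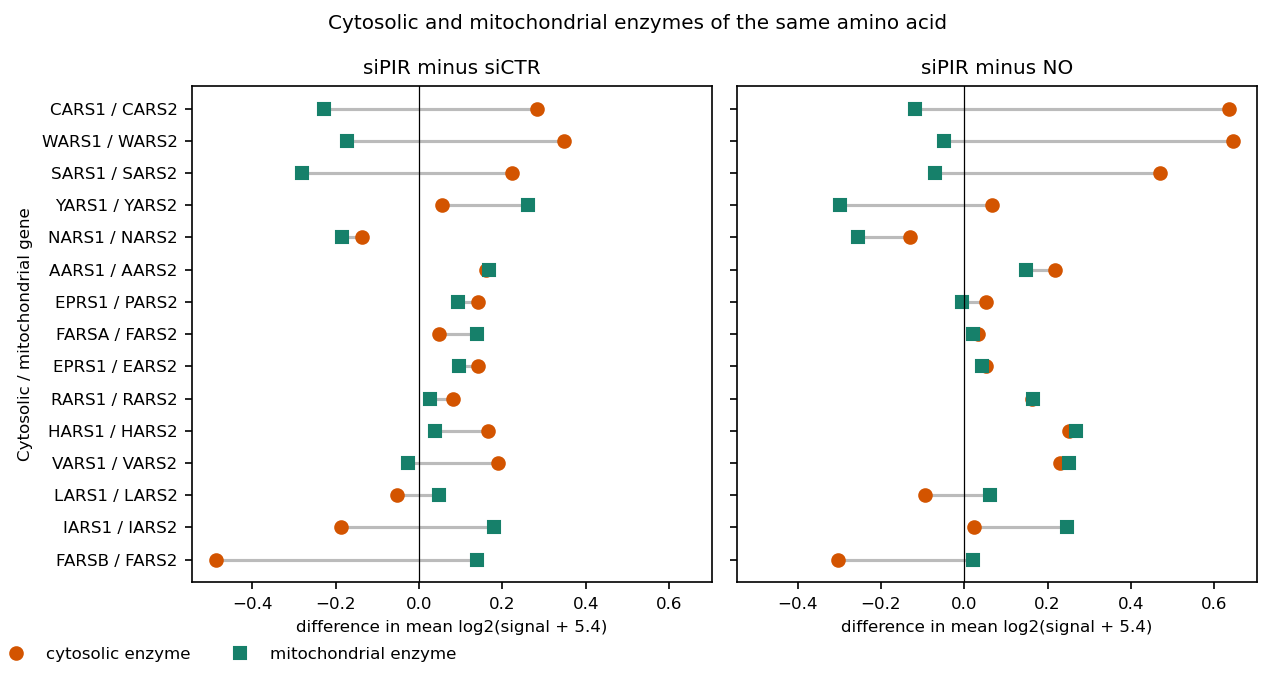
Difference in mean log2 signal for cytosolic (circles) and mitochondrial (squares) enzymes of the same amino acid, siPIR minus siCTR on the left and siPIR minus NO on the right. The cysteine, tryptophan and serine pairs have the cytosolic enzyme above 0 and the mitochondrial one below 0 in both panels, with gaps from 0.50 to 0.75.

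HARS1 and HARS2, the cytosolic and mitochondrial histidine enzymes, are transcribed away from each other from starts with 84 bases between them on chromosome 5 (GRCh38.p14, RefSeq). Those bases are printed along the strand of HARS1, because a start lies at each end.
HARS1 and HARS2 (chr5:140691371-140691454, minus strand): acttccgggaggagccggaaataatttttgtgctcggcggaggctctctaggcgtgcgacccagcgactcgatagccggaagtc
HARS1 had 2341 and 2188 in siPIR, 1976 and 2060 in siCTR, and 1952 and 1848 in NO. HARS2 had 866 and 933 in siPIR, 910 and 843 in siCTR, and 788 and 705 in NO. Against NO the genes differed by 0.25 (0.16 to 0.34) and 0.27 (0.13 to 0.40), each without overlap, and against siCTR by 0.17 (0.09 to 0.24) without overlap and by 0.04 (-0.07 to 0.15) with overlap.

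After the values were seen, the order of the 3 pools was counted. In 6 members, CARS1, GARS1, HARS1, SARS1, WARS1 and IARS2, both siPIR arrays lay above both siCTR arrays and these above both NO arrays, at any size, and in 0 members was the whole order reversed. Of all measured genes 10.5% had the first order and 7.35% the second, and of bright genes 14.9% and 9.61%. The count for the first order was 10 without siCTR replicate 1, and 6 or 7 when any other array was left out.

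Several probe sets allow a check within a gene. Of 17 members with more than 1 measured probe set, all of them had the same sign in 7 against siCTR and in 8 against NO. The further probe sets of CARS1 had differences of 0.74 and 0.92, and of 0.12 and 0.46, so that CARS1 was higher in siPIR in all 3. The CARS1 probe set at 0.74 and 0.92 met the call at 0.5 against both controls (0.65 to 0.83 and 0.73 to 1.11). The further probe set of WARS1 had 0.38 from siCTR and 0.26 from NO, and there siCTR was not above NO (-0.12). That of KARS1 had -0.20 from each control. SARS1 is not settled: a dimmer probe set had 271 and 251 in siPIR, 371 and 429 in siCTR, and 426 and 376 in NO, with differences of -0.60 and -0.61. This probe set met the call at 0.5 as lower than both controls (-0.76 to -0.44 and -0.75 to -0.46). FARSB is not settled against siCTR either, since a dim probe set, with signals of 24.5 to 147, gave 1.00 from siCTR (-0.00 to 2.01) and -0.12 from NO. A dim probe set of YARS1, the cytosolic tyrosine enzyme, with signals of 25.2 to 115.8, gave -0.91 from siCTR (-1.99 to 0.17) and -1.05 from NO (-1.89 to -0.21), where its brightest gave 0.05 and 0.07. GARS1 has 1 probe set.

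**Figure D4:**
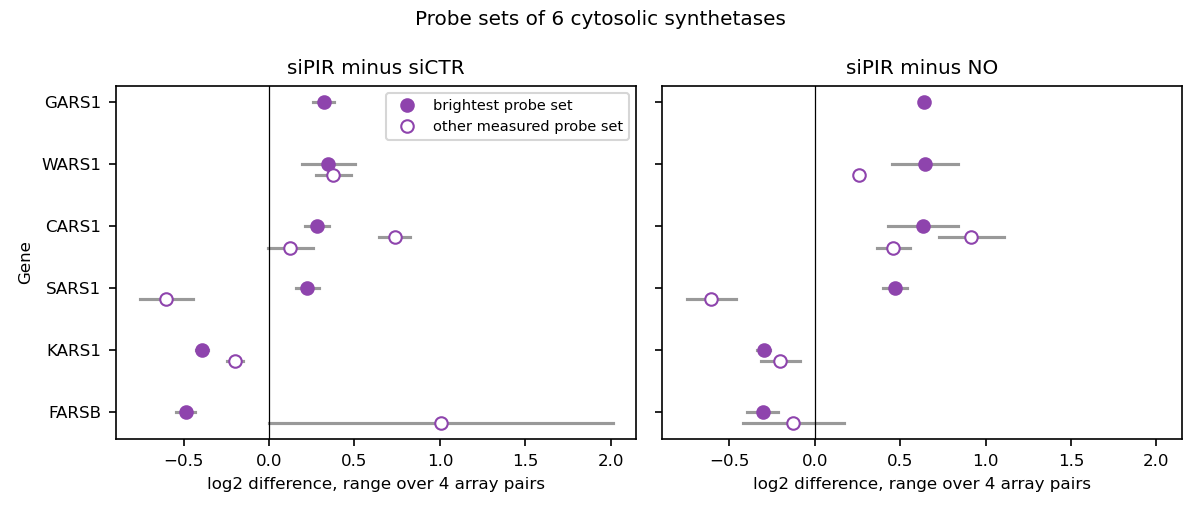
Log2 differences for every measured probe set of 6 cytosolic synthetases, siPIR minus siCTR on the left and siPIR minus NO on the right; filled points are the brightest probe set, open points the others, and bars the range over the 4 array pairs. The probe sets of CARS1, WARS1 and KARS1 lie on 1 side of 0 in each panel, and those of SARS1 on opposite sides.

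Of 24 measured genes of the ATF4 and amino acid stress response, 1 was called higher and 1 lower than each control at 2-fold (1.47% and 3.2% of all measured genes), and 2 and 2 at the smaller size (8.66% and 9.4%). Their medians were 0.00 (siCTR) and -0.00 (NO), where all measured genes had 0.05 and 0.03. SESN2, a stress-induced inhibitor of mTORC1, had 946.6 and 894.4 in siPIR, 428.8 and 402.4 in siCTR, and 244.4 and 317.8 in NO, higher by 1.14 and 1.70. PHGDH, which opens the synthesis of serine, had 1594 and 1724 in siPIR, 3809 and 3665 in siCTR, and 3476 and 3651 in NO, with differences of -1.17 and -1.10. No arrays of siPIR and a control overlapped in either gene. At the smaller size STC2, a secreted glycoprotein (0.85 and 0.91), was also higher and MTHFD2, the mitochondrial folate enzyme (-0.95 and -0.83), lower. ATF4 itself differed by -0.17 and -0.27 and the ATF4 target ASNS, asparagine synthetase, by -0.16 and -0.21, both named after their values were seen. At any size, both siPIR arrays lay above all control arrays in 8 of the 24 genes and below them in 7 (28.4% and 23.1% of measured genes). Those above, also named after their values were seen, included TRIB3 (0.23 and 0.46), DDIT4 (0.46 and 0.66), VLDLR (0.49 and 0.91) and NUPR1 (0.33 and 0.27). Those below, named in the same way, included ALDH18A1 (-0.35 and -0.35), PSAT1 (-0.17 and -0.40), CTH (-0.22 and -0.39) and SHMT2 (-0.20 and -0.17). The order siPIR above siCTR above NO held in 6 of the 24 and its reverse in 2 (10.5% and 7.35% of measured genes).

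Of 10 measured amino acid transporters, 2 were called higher and 1 lower at 0.5 against both controls (8.66% and 9.4% of all measured genes). The medians were 0.27 and 0.23, and without shared-probe (_x_at and _s_at) probe sets 0.04 and -0.09, which turns the direction against NO. SLC7A5, the transporter LAT1 for large neutral amino acids, had 6178 and 5711 in siPIR, 3015 and 2625 in siCTR, and 2470 and 2071 in NO, higher by 1.08 and 1.39. SLC1A4, a carrier of alanine and serine, was higher by 0.51 and 0.52, and SLC38A1, a glutamine carrier, was lower, with differences of -0.59 and -0.54 at low signal. SLC6A9, a glycine transporter, differed by 1.24 and 0.97 at low signal, with overlap with NO. SLC7A1, a carrier of cationic amino acids, differed by -0.47 and -0.10.

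In the other lists of charging and translation genes, counts at 0.5 against both controls stand beside 8.66% higher and 9.4% lower among all measured genes. Of 72 measured mitochondrial ribosomal proteins 0 were called higher and 1 lower, namely MRPS27 (-0.60 and -0.52), with medians of -0.04 and -0.03. MRPL19 had -0.37 and -0.68, MRPL2 0.39 and 0.76, and MRPL17 0.36 and 0.55. Of 22 measured genes of tRNA processing and export 0 were higher and 1 lower, the splicing endonuclease subunit TSEN15 (-0.91 and -0.77), with medians of -0.07 and -0.07. TRNT1, which adds the CCA end to tRNAs, had -0.27 and -0.34, and POP5 and RPP25, proteins of RNase P, had 0.37 and 0.41, and 0.27 and 0.25. For 13 mitochondrial translation factors, 6 cytosolic elongation and termination factors and 4 genes of charge editing and selenocysteine charging the counts were 0 and 0. Their medians were -0.12 and -0.07, -0.00 and -0.09, and 0.00 and 0.05, each pair against siCTR and then NO. Of the mitochondrial factors, the elongation factor GFM1 had -0.38 and -0.38 and the release factor MTRF1 -0.34 and -0.48, while TUFM, which delivers charged tRNAs to the ribosome, had 0.29 and 0.23 and MTFMT, which formylates the initiator tRNA, 0.24 and 0.18. Of the cytosolic factors EEF1A1, the counterpart of TUFM, had 0.10 and 0.17, EEF2 0.16 and 0.09, and the termination factors GSPT1 and ETF1 -0.13 and -0.09, and -0.07 and -0.17. Among the editing genes DTD1, a D-aminoacyl-tRNA deacylase, had 0.27 and 0.20, DTD2 0.05 and 0.02, PSTK, a kinase of the selenocysteine route, -0.22 and -0.09, and SEPSECS -0.05 and 0.07. Without _x_at and _s_at probe sets the median of the cytosolic factors against NO was -0.55. No set test was made.

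**Figure D5:**
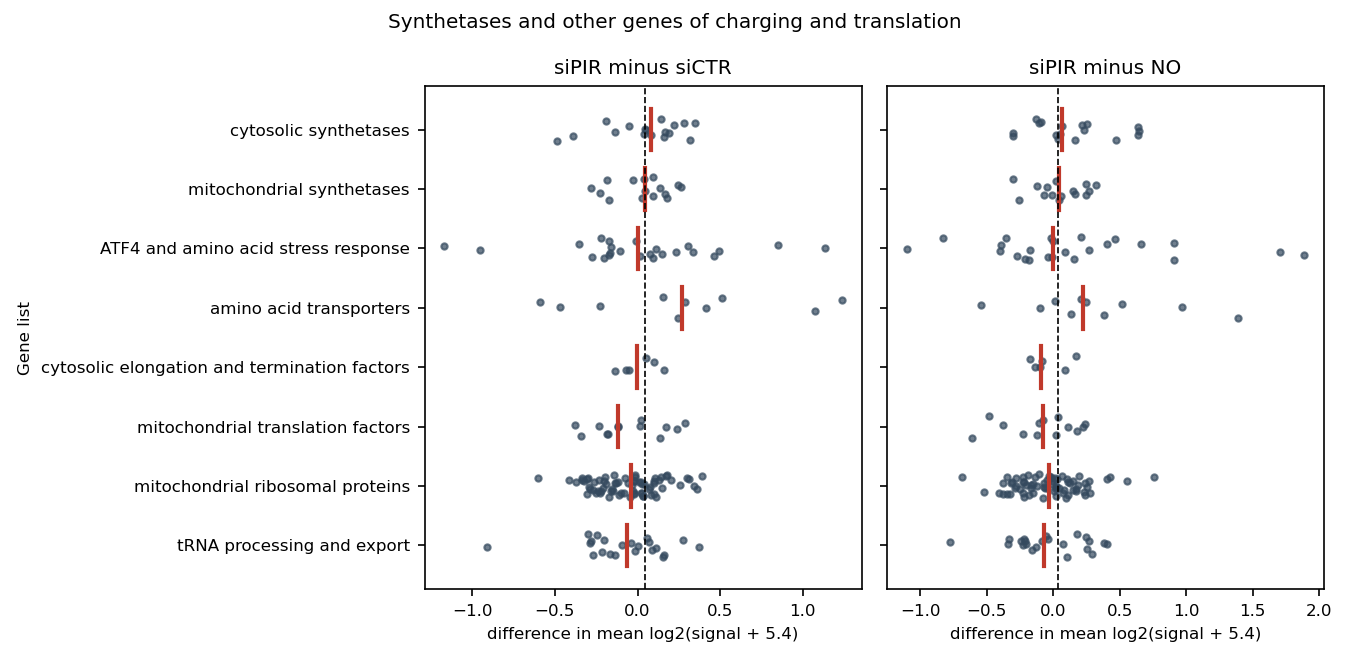
Log2 differences of single genes (points) in 8 lists, siPIR minus siCTR on the left and siPIR minus NO on the right; red bars are list medians and the dashed line the median of all measured genes. The synthetases lie between -0.49 and 0.65, while the ATF4 and transporter lists hold genes past 1 in size.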

How the data were processed

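The authors deposited an intensity for each probe set and array, on a linear scale, made with GCOS, the Affymetrix array software, per the submitters' processing notes; the version is not given in the sources used here. The mean after trimming 2% at each end was 500.1 on every array, so differences in total signal between arrays are removed. All 6 columns were matched to samples. Probe sets were named through the platform annotation and Entrez identifiers (99.9% of 41097 single-gene probe sets matched RefSeq of GRCh38.p14). Intensity was taken as log2(value + 5.4), the 10th percentile of all values, which understates differences of dim genes. A gene was measured when a pool mean exceeded 70.2, the median of all values.

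The 2 arrays of a pool were averaged, and replicate numbers name arrays of 1 RNA pool. Calls need a log2 difference of 0.5 or 1 and separate arrays, a rule of size and not a test of conditions. The rule was tested on simulated data with noise taken from the gap between the NO arrays. That noise holds no variation between cultures. All members were eligible to be named. In each class those given in detail were the 4 highest and 4 lowest by their smaller difference from both controls, and in other lists the genes called at 2-fold with the 2 highest and 2 lowest. FARSA, HARS1, HARS2 and YARS2 are also given by array, chosen after their values were seen. Members, lists and rules were chosen with earlier results of these data known. Python 3.11.15, numpy 2.4.6 and pandas 2.3.3 were used. Alternatives were other pseudocounts, probe sets, filters and scalings, and leaving out each array.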

Additional observations from a re-analysis of the deposited data

How the results depend on the processing

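Under each of 13 alternatives, 0 members were called higher or lower in siPIR than both controls at 0.5. No alternative took single further probe sets. Taken alone, a further probe set of CARS1 met this call as higher and that of SARS1 as lower. Of 260 alternative values of the main counts and medians 245 stayed close in size. A median was close when it moved by no more than its spread over the 4 pairs of arrays. A count was close when equal or within a set ratio, whichever genes it held, and many counts were 0 in both cases. Direction was not assessed for these values. As means over probe sets, 1 member was lower in siPIR than in NO at 0.5 (FARSB), 2 were lower in siCTR than in NO (TARS1 and YARS2), WARS1 gave way to FARS2 among the 3 called higher than NO, and the mitochondrial median against NO was 0.25. These means take in probe sets below the filter. FARS2 has such a probe set, with signals of 4.5 to 44.3 and 1.60 from NO, where its measured ones gave 0.02 and -0.09. Those of FARSB (-1.40 for siPIR against NO) and TARS1 (-1.03 for siCTR against NO) had signals of 3.2 to 50.1 and 12.8 to 55.5. Without _x_at and _s_at probe sets, which drops GARS1, 2 members were called higher than NO and 1 was lower at 0.5 and at 1. The lower member was YARS1, which then rests on its dim probe set. The cytosolic median against NO was 0.16. The cause was not tested for the shifts of the medians. Leaving out each array gave 0 to 1 members lower than siCTR at 0.5 (1 without siPIR replicate 2, FARSB), 2 to 4 higher than NO, 0 to 1 higher and 0 to 1 lower in siCTR than in NO (CARS1 at 0.54 without NO replicate 1, and YARS2). Over the same omissions the mitochondrial median against siCTR ran from 0.013 to 0.121, the cytosolic median against siCTR from 0.031 to 0.108, the mitochondrial median against NO from 0.023 to 0.070, the cytosolic median against NO from 0.000543 to 0.160, and the cytosolic median of siCTR against NO from 0.048 to 0.145. Scaling moved the median of all genes by less than 0.1. Dim signals limit precision: in siPIR the median gap between repeat arrays was 0.14 over all measured genes and 0.10 over bright ones. No paired analysis was possible because each group is 1 RNA pool and its replicate numbers name repeat arrays.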
